A study of Hypsibius exemplaris with 24 samples.

Results

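Pools of the freshwater tardigrade *Hypsibius exemplaris* taken 3 h after a bleomycin exposure were compared with pools taken 1 h after it. They make up 6 of the 24 RNA-seq libraries of the series, 3 at each time, and were taken as the columns that the sample titles place at these times. Every library was made from 50 whole animals. Both groups had spent 24 h in 100 µM bleomycin in Volvic water, were washed in that water, and were then kept at 18 °C on agar plates supplied with *Chlorella* as food until they were frozen. They therefore differ by 2 further hours on the plates. The series also holds unexposed controls and animals frozen at 0 h, neither of which was washed or fed, and washed and fed animals frozen 6, 9, 12 and 24 h after the exposure. No unexposed animals were moved to plates, so time since bleomycin, time on the plates and feeding cannot be told apart here. The labels call the replicates biological but do not say which animals share a culture or a day. The p-values measure only the spread between these libraries.

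Bleomycin is a glycopeptide drug that breaks DNA strands, double strands included. Animals answer such breaks with a damage response in which repair genes, cell cycle control and protein turnover can all change at the level of RNA. Tardigrades are known for their tolerance of ionizing radiation and of drying, and for strong induction of DNA repair genes after radiation or bleomycin. An early time course after removal of the drug asks how RNA levels move once the exposure has ended. The table gives transcript identifiers with no gene names, so no function is given to any transcript below, and transcripts are described by their level and their course. In whole animals, fewer cells of a type and less RNA per cell cannot be told apart.

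Levels were deposited as TPM (the share of a library held by a transcript, corrected for its length). They are given here as scaled TPM, after division by 1 factor per library. The factors were 1.08, 1.08 and 1.10 in replicates 1 to 3 of 1 h and 0.929, 1.11 and 1.05 in those of 3 h. Between 16297 and 16879 transcripts were listed above 0 in these 6 libraries. How deeply each library was sequenced is unknown, since TPM does not keep it. The libraries of 1 h were closer to each other (Pearson r of 0.961 to 0.963 across transcripts, which are not independent replicates) than those of 3 h (0.943 to 0.958). Correlations between a 1 h and a 3 h library were 0.915 to 0.939. The median standard deviation of a transcript over 3 replicates was 0.23 on the log2 scale at 1 h and 0.35 at 3 h.

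The largest rise between 1 and 3 h on the log2(scaled TPM + 1) scale, among the transcripts that the rule for named transcripts takes, was that of BV898_18167. It stood at 0.892, 0 and 0.880 scaled TPM in replicates 1 to 3 of 1 h, and at 14.9, 31.2 and 40.3 in those of 3 h. All libraries of 3 h lay above those of 1 h. The rule takes only rises and falls without overlap, so for the 2 rises and 2 falls it names this was fixed by the choice. The log2 fold change was 4.18 (SE 1.03; limma, adjusted p = 0.0163). The high level was not seen at 6 h, where replicate 1 was at 0.961 and the other libraries were listed at 0. The libraries of 0 h were far apart, from 0 to 57.8, and those of 12 h were between 3.84 and 30.6. Without 1 h replicate 2 its adjusted p was 0.0737, and without 3 h replicate 3 it was 0.0561 (limma).

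BV898_11063 had the next largest rise on that scale and was the more abundant of both. Their order depended on the pseudocount, since BV898_18167 was near 0 at 1 h. With a pseudocount of 5 the log2 fold change was 3.58 for BV898_11063 and 2.52 for BV898_18167, and with 0.1 it was 4.05 and 5.86. Its levels were 11.4, 12.0 and 11.2 scaled TPM in replicates 1 to 3 of 1 h and 138.7, 213 and 241 in those of 3 h, a ratio of means of 17.1. The groups did not overlap, and the log2 fold change was 3.95 (SE 0.69; limma, adjusted p = 0.00152). The 6 h pools had 24.8 ± 0.451 and the 24 h pools 311 ± 177 (SD, n = 3 each). The controls, at 65.9 ± 37.3 (SD, n = 3), lay above all libraries of 1 h and below all libraries of 3 h.

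BV898_12195 had the largest fall on the log2(scaled TPM + 1) scale. Its levels were 661, 231 and 515 scaled TPM in replicates 1 to 3 of 1 h and 42.3, 19.1 and 76.8 in those of 3 h. The groups did not overlap, and the log2 fold change was -3.40 (SE 0.61; limma, adjusted p = 0.00193). The 0 h pools had a mean of only 5.76 ± 4.49, and the 6 h pools one of 373 ± 50.7 (SD, n = 3 each). Every 3 h library lay below those of 1 h and of 6 h. The later means were 244 for 9 h, 138.0 for 12 h and 52.3 for 24 h.

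The other named fall was that of BV898_18670 in its transcript t01, a transcript of low level. It was at 8.71, 3.89 and 8.64 scaled TPM in replicates 1 to 3 of 1 h and at 0 in every 3 h library, so no fold is given (limma, adjusted p = 0.0217). With a pseudocount of 0.1 in place of 1, its fitted fall was the larger of both named falls. Every 12 h library also listed it at 0, while the controls were between 9.94 and 14.1. Transcript t02 of the same locus ranged from 24.2 to 52.9 at 1 h and from 12.0 to 32.1 at 3 h, so the locus was above 0 at both times. The adjusted p of t01 rose to 0.0743 and 0.0863 without 1 h replicates 1 and 3, and to 0.0783 and 0.0543 without 3 h replicates 1 and 3 (limma).

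Locus BV898_14257, followed at every time whatever its values, was at 85.1, 47.2 and 73.8 scaled TPM in replicates 1 to 3 of 1 h. The 3 h replicates had 93.5, 101 and 129. The groups did not overlap, but the log2 fold change of 0.67 (SE 0.30) did not pass the threshold (limma, adjusted p = 0.187). Over the alternatives the adjusted p ranged from 0.0407, with libraries weighted by quality, to 0.515 (limma).

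**Figure D1:**
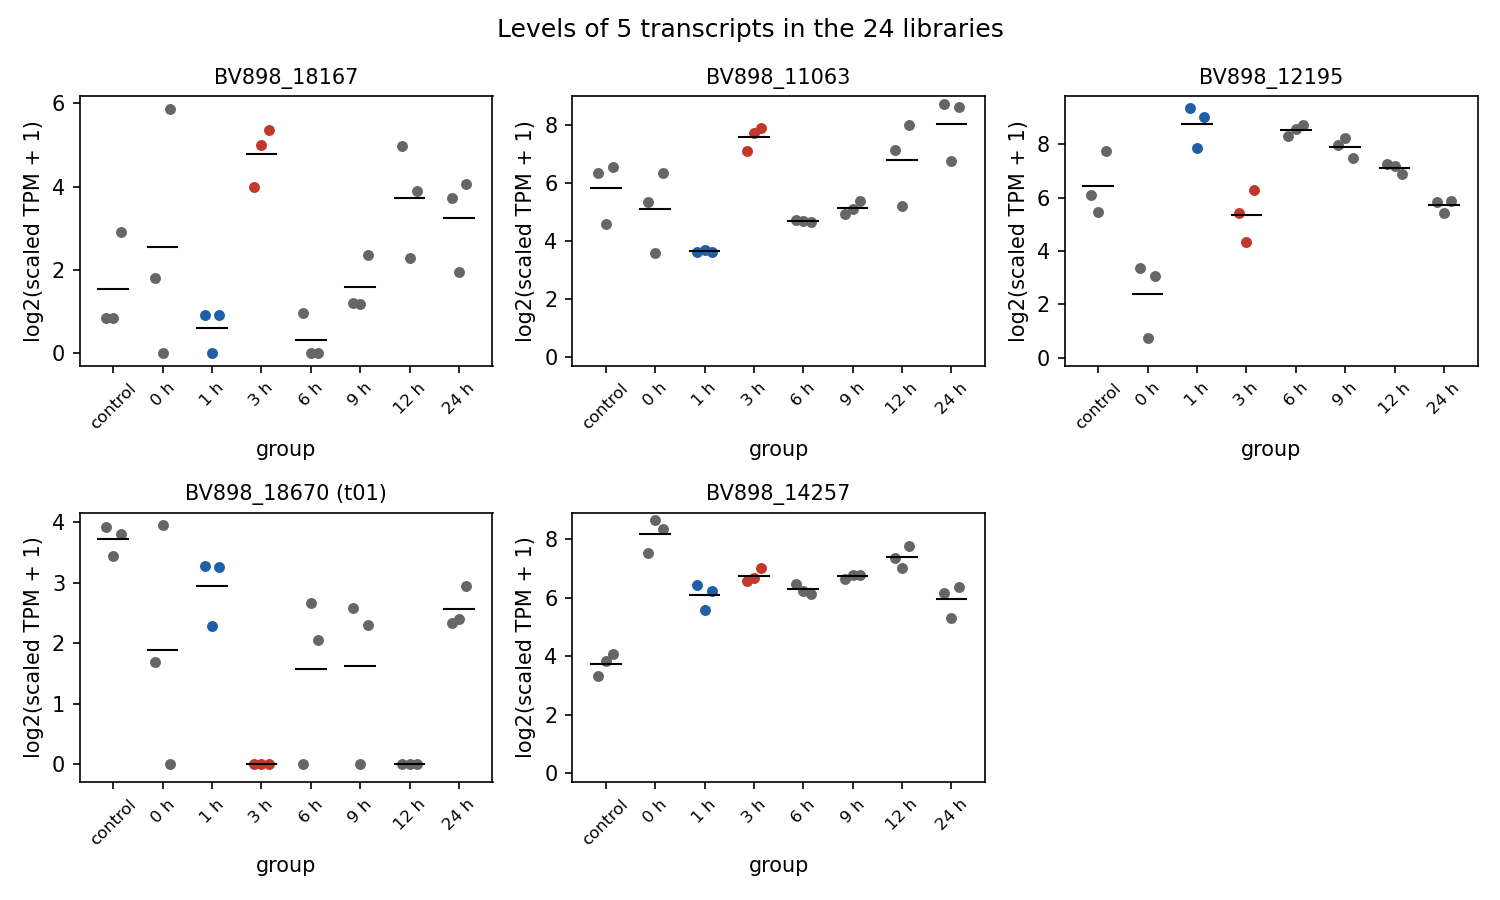
Level of 5 transcripts as log2(scaled TPM + 1) in all 24 libraries, by group (points, 3 libraries each, replicates 1 to 3 from left to right; 1 h in blue, 3 h in red; lines, group means). BV898_18167 and BV898_11063 have higher points at 3 h than at 1 h and lower ones again at 6 h, BV898_12195 has its 3 h points below those of both neighbouring times, BV898_18670 (t01) is listed at 0 at 3 h and 12 h, and the points of BV898_14257 at 1 h and 3 h lie close together without overlap.

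Across the whole table, 1264 of 16490 tested transcripts (7.67%) differed between 1 and 3 h at an adjusted p under 0.05 (limma). Of these, 748 rose (4.54% of the tested) and 516 fell (3.13%). The median log2 fold change was 1.06 among the risen and -1.09 among the fallen transcripts, against -0.01 over all tested. On the log2(scaled TPM + 1) scale of the fit, which understates changes of low transcripts, a change of at least 2-fold was reached by 404 rises and 312 falls, and one of at least 4-fold by 75 and 34. At least 8-fold on that scale were 11 rises and 1 fall, that of BV898_12195. The fallen transcripts listed at 0 in all 3 h libraries, 11 in number and BV898_18670 among them, have no fold of levels and are counted here by their fitted values. The libraries of both times did not overlap for 742 of the risen transcripts (15.4% of all tested were higher at 3 h with no overlap) and for 515 of the fallen ones (15.2% lower). The calls rest on these same libraries, so the near lack of overlap follows largely from the choice of the sets. At an unadjusted p under 0.05 there were 3778 transcripts (22.9%).

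The number of calls moved when single libraries were left out. It was 803, 582 and 594 without replicates 1, 2 and 3 of 1 h, and 501, 1381 and 952 without those of 3 h. Each such fit keeps fewer libraries. Of the 501 calls made without 3 h replicate 1, 475 were among the 1264. Over the 6 fits, 251 rises and 123 falls were called each time. The 3 h library with the highest level was replicate 1 for 561 of the 748 risen transcripts (75%), and the lowest was replicate 1 for 295 of the 516 fallen ones (57.2%). By library, the median log2 difference of the risen transcripts from the 1 h mean was 1.31, 0.88 and 0.94 in replicates 1 to 3 of 3 h. That of the fallen transcripts was -1.28, -0.92 and -1.02.

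**Figure D2:**
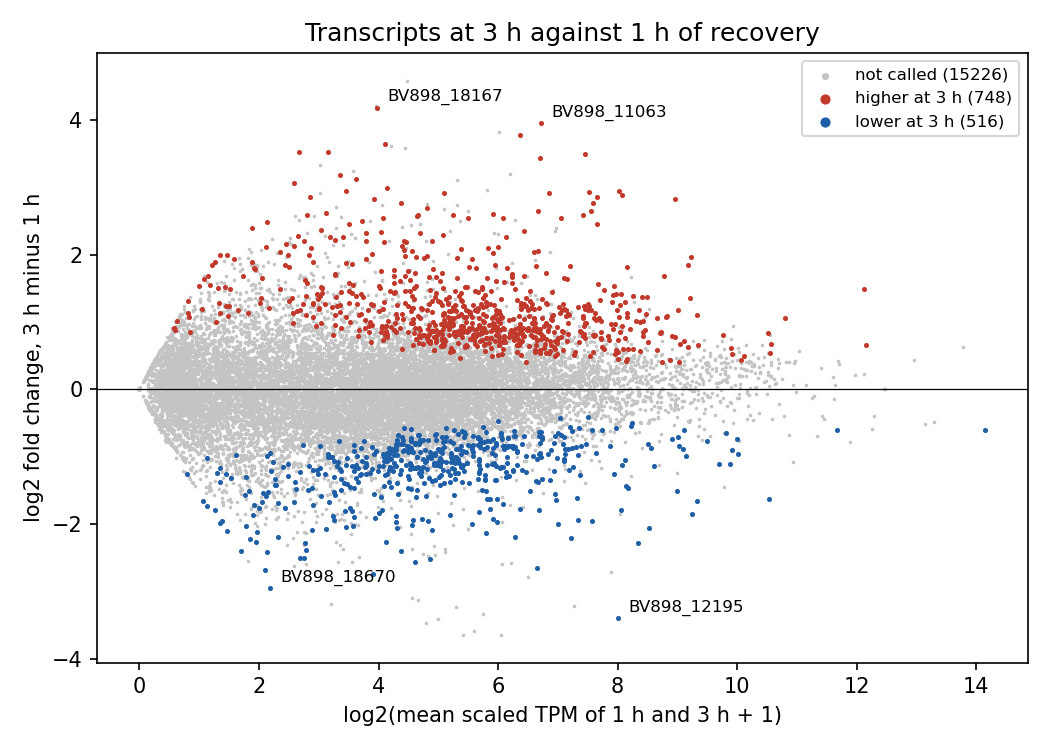
Log2 fold change at 3 h against 1 h (vertical axis) by the log2 of the mean scaled TPM of both times plus 1 (horizontal axis) for the 16490 tested transcripts. The 748 transcripts called higher (red) and the 516 called lower (blue) are spread over all levels, and the 4 transcripts with the largest changes under the naming rule are labelled.

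The share of transcripts called as risen or fallen differed by level. The scale of the fit understates changes of low transcripts, and their spread with them. With a pseudocount of 5 in place of 1 there were 1332 calls over all levels, and with 0.1 there were 1194. What part the scale has in the shares that follow was not tested. By mean level over all 24 libraries, the share called as risen was highest between 100 and 500 scaled TPM, where 12.4% rose and 4.65% fell. At 500 scaled TPM or more 22 of 318 rose (6.92%) and 14 fell. Between 20 and 100 scaled TPM 7.41% rose and 5.00% fell. Between 5 and 20 scaled TPM 2.84% rose and 2.97% fell, and between 1 and 5 falls outnumbered rises, with 46 against 33 of 3333. Under 1 scaled TPM 10 rose and 3 fell of 1825. The median level of the risen transcripts went from 28.7 scaled TPM at 1 h to 63.8 at 3 h, and that of the fallen ones from 40.9 to 19.0. Over all tested transcripts it was 12.9 and 12.3. Changes from or to a listing at 0 were few: 9 risen transcripts were listed at 0 in all libraries of 1 h and 11 fallen ones in all libraries of 3 h.

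As a share of all TPM, the risen transcripts held 5.83% ± 0.202 in the 1 h pools and 11.2% ± 0.798 in the 3 h pools (SD, n = 3). The fallen ones held 8.30% ± 0.177 and 4.24% ± 0.425. These libraries chose the sets, so the direction of both shifts was fixed by the choice, and their size is raised by it. In groups that did not choose them, the risen transcripts held 8.09% in the 6 h pools and 6.84% in the controls. The fallen ones held 5.88% and 6.86% there. Of the fallen share, BV898_08387 held 2.38% of all TPM in the 1 h pools and 1.49% in the 3 h pools. It was singled out after its values were seen, as the most abundant transcript of the table over these 6 libraries. It was at 22488, 22859.6 and 20209.7 scaled TPM in replicates 1 to 3 of 1 h and at 16639, 14725 and 12224 in those of 3 h. The groups did not overlap, and the log2 fold change was -0.60 (SE 0.15; limma, adjusted p = 0.0146). With quantile normalization it was -0.26 (limma, adjusted p = 0.403). Fitted to the 6 libraries alone its adjusted p was 0.0833, and 0.140 with the replicate block added. Without 1 h replicates 1 and 2 it was 0.0545 and 0.0676, and without 3 h replicate 3 it was 0.0756 (limma). The remaining fallen transcripts held 5.92% ± 0.0594 of all TPM in the 1 h pools and 2.75% ± 0.308 in the 3 h pools (SD, n = 3).

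Where the new level lay relative to the earlier groups differed from transcript to transcript. The levels of 1 h and 3 h chose the risen and fallen transcripts, so a 1 h mean that lies low by chance also makes other groups look high, and the counts that follow are a description. For 295 of the 748 risen transcripts the 0 h mean was below that of 1 h. For 358 it lay between the means of 1 h and 3 h, and for 95 above that of 3 h. For 182 of the 516 fallen transcripts the 0 h mean was above that of 1 h. For 225 it lay between both means and for 109 below that of 3 h. The median log2 fold change at 1 h against 0 h was -0.18 for the risen and 0.30 for the fallen transcripts, a comparison that shares the libraries of 1 h. Relative to the control, the median of the risen transcripts was -0.06 for 1 h and 1.03 for 3 h, and that of the fallen ones 0.05 and -0.99.

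A comparison of 6 h with 0 h uses none of the libraries that chose the sets. All libraries share an estimate of the spread, however, so a transcript with a small spread is called more readily in both comparisons. A mean of 100 scaled TPM or more at 1 h or 3 h was reached by 34.8% of the risen transcripts. It was reached by 20.3% of the fallen and 11.8% of all tested, so all tested are not a matched background. Of the 748 risen transcripts, 242 (32.4%) were called higher in the 6 h pools than in those of 0 h, against 12.8% of all tested transcripts. Called lower were 91 of them (12.2%), against 10.3% of all. Of the 516 fallen transcripts, 123 (23.8%) were called lower in the 6 h pools, and 102 (19.8%) were called higher. The fallen transcripts thus exceeded the share of all tested transcripts in both directions, with medians of -0.15 for them, 0.29 for the risen and 0.03 for all tested on the log2 scale. Among the 34 falls of at least 4-fold, 15 were called higher in the 6 h pools and 2 lower. The wash, the plates and the food also separate 6 h from 0 h. Without single libraries of these 4 times the share of risen transcripts called higher was between 25.7% and 37.5%, against 8.92% to 12.8% of all tested. That of fallen ones called lower was between 18.1% and 31.4%, against 7.29% to 10.5%. Some of the counts fell by more than 1.5 times because fewer transcripts were called between 1 and 3 h. They were 126, 132 and 108 rises and 53, 65 and 53 falls without 1 h replicate 2, 1 h replicate 3 and 3 h replicate 1. Without 6 h replicate 3 the fallen count was 81.

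**Figure D3:**
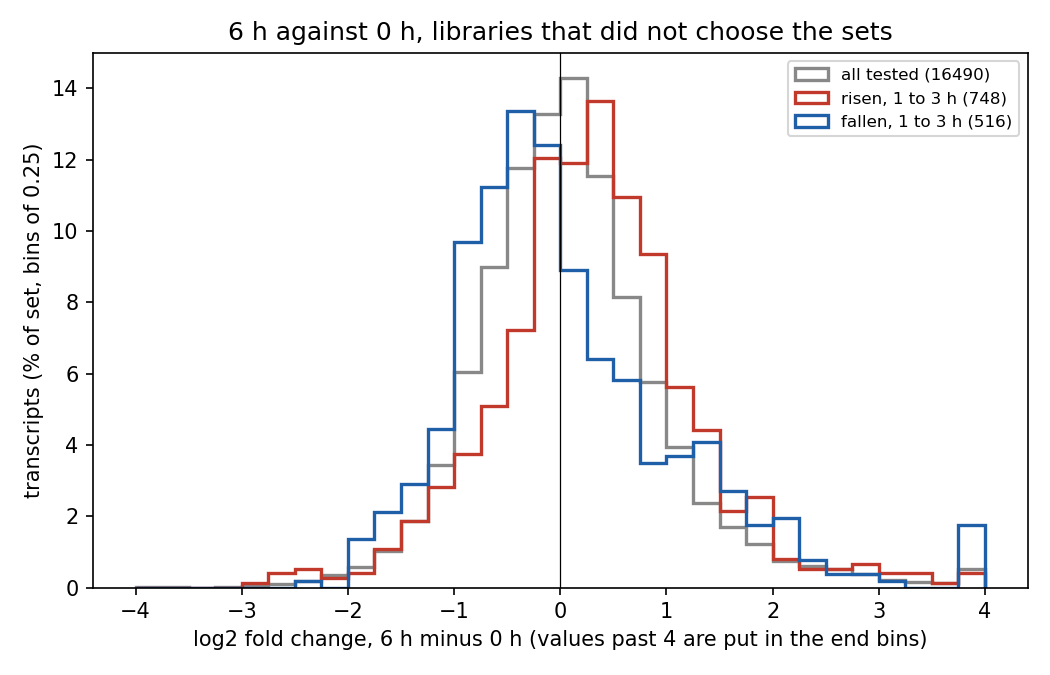
Distribution of the log2 fold change at 6 h against 0 h (horizontal axis, bins of 0.25) as a percentage of each set for all 16490 tested transcripts (grey), the 748 risen (red) and the 516 fallen (blue) between 1 and 3 h. The risen set lies to the right of all tested, with a median of 0.29 against 0.03, and the fallen set has its peak to the left of 0 and holds 102 transcripts called higher at 6 h on the right.

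By their medians, the changed transcripts lay between their 1 h and 3 h levels in the 6 h pools. The median log2 fold change at 6 h against 3 h was -0.54 for the risen and 0.65 for the fallen transcripts. This comparison shares the libraries of 3 h, so part of the return follows from the choice of the sets. At 6 h the mean of 622 of the 748 risen transcripts and of 454 of the 516 fallen ones lay between those of 1 h and 3 h. The control mean lay there for 313 risen and 217 fallen transcripts, and the 12 h mean for 345 and 220. The sets were chosen for separate levels at 1 h and 3 h, which favours such a place, and all tested transcripts were not counted in this way. As a fraction of the way from the 1 h mean to the 3 h mean, the risen transcripts lay at a median of 0.471 for 6 h. It was 0.914 for 12 h and 0.836 for 24 h. Among the fallen ones the medians were 0.403, 0.996 and 0.935. Groups from before this step also lay part of the way. For 0 h the medians were 0.163 for the risen and 0.286 for the fallen, and for the control 0.0499 and 0.0614. By library, the risen medians lay between 0.43 and 0.56 above the 1 h mean in the 6 h pools and between 0.59 and 0.66 in the 9 h pools. They were between 0.92 and 1.09 in the 12 h pools and between 0.66 and 1.04 in the 24 h pools. The fallen medians lay between -0.48 and -0.34 in the 6 h pools and between -1.16 and -1.01 in the 12 h pools. On the same scale the controls lay between 0.00 and 0.15 for the risen and between -0.20 and 0.02 for the fallen transcripts. The 0 h pools lay between 0.14 and 0.22 for the risen and between -0.39 and -0.13 for the fallen transcripts. For the fallen ones the ranges of 0 h and 6 h thus overlapped. Of the risen transcripts, 239 had their highest group mean in the 3 h pools (32.0%, against 6.90% of all tested), a share that the choice of the set raises. The 12 h pools held the highest mean of 238 (31.8%, against 21.1% of all tested), those of 24 h that of 156 (20.9% against 18.7%) and those of 6 h that of 10 (1.34% against 5.40%). Of the fallen ones, 106 had their lowest mean in the 3 h pools (20.5%, against 6.49% of all tested), again raised by the choice of the set. It was lowest in the 12 h pools for 161 (31.2% against 21.03%), in those of 24 h for 140 (27.1% against 13.8%), in those of 0 h for 79 (15.3% against 19.8%) and in the controls for 20 (3.88% against 19.7%). These places were counted with the scaled values only.

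**Figure D4:**
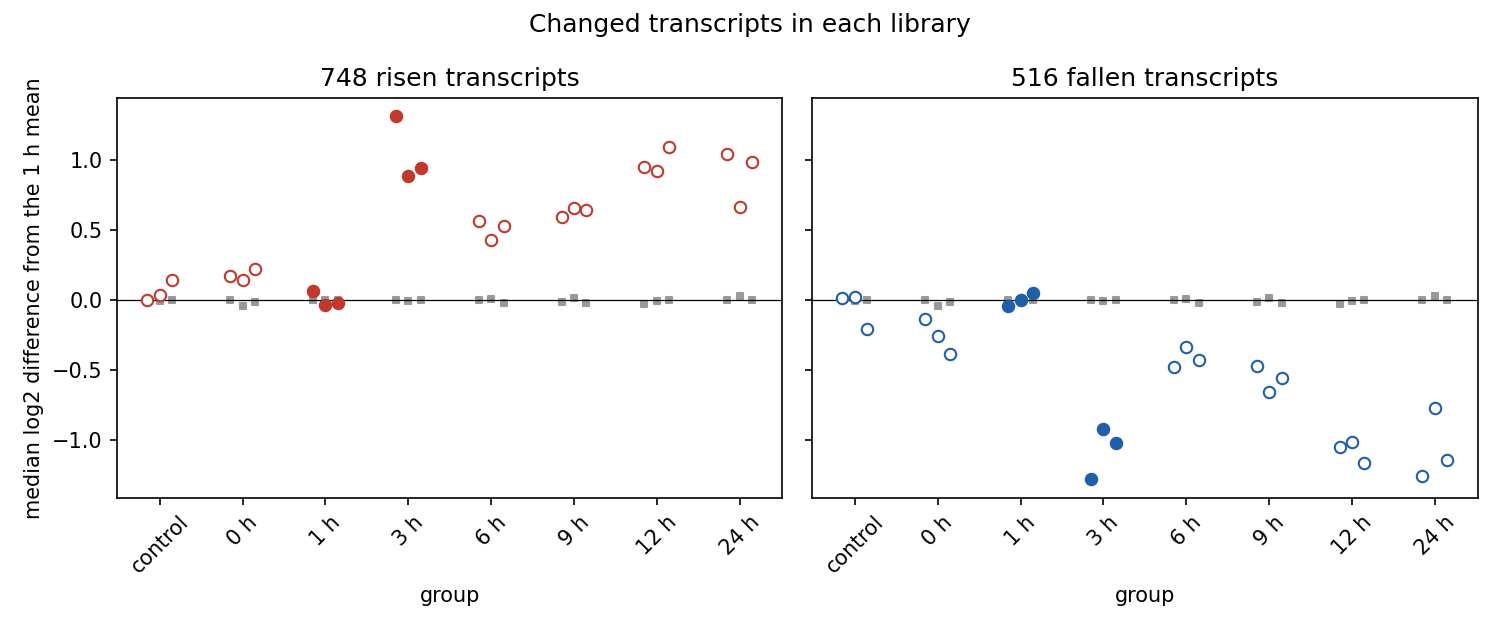
Median log2 difference from the 1 h mean (vertical axis) of the 748 risen (left) and the 516 fallen (right) transcripts in each of the 24 libraries, by group (replicates 1 to 3 from left to right). Filled points are the libraries that chose the sets, open points the others, and grey squares the median of all tested transcripts in the same library. The risen medians lie between 0.43 and 0.56 for 6 h and between 0.92 and 1.09 for 12 h.

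The strongest changes can also be given as levels. The 75 transcripts that rose at least 4-fold had a median of the group means of 6.44 scaled TPM for 1 h and 35.2 for 3 h. It was 12.8 for 6 h, 26.04 for 12 h, 50.2 for 24 h and 9.94 for the control. The 34 that fell at least 4-fold had a median of 17.5 for 1 h and 3.39 for 3 h. Theirs was 10.6 for 6 h, 4.78 for 12 h, 3.23 for 24 h and 11.02 for the control.

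Neither 9 h nor 12 h chose the sets, and the step between them was set beside that of all transcripts after the values were seen. The median log2 fold change at 12 h against 9 h was 0.33 for the risen, -0.53 for the fallen and 0.00 for all tested transcripts. With unscaled TPM the medians were -0.03, -0.90 and -0.29. Division by 1 factor per library moves all its transcripts nearly alike. The places of the sets on both sides of all transcripts could thus hardly change, and the unscaled values are no check of them. In scaled values the 12 h mean was above that of 9 h for 512 of the 748 risen transcripts and below it for 406 of the 516 fallen ones. Such counts were not made over all tested transcripts, nor with unscaled TPM, where the risen median was -0.03. With the sets rebuilt without each library of 1 h and 3 h in turn, the difference from all transcripts was between 0.17 and 0.46 for the risen and between -0.69 and -0.26 for the fallen median. It was smallest without 3 h replicate 3 for the risen, 0.17, and without 3 h replicate 1 for the fallen, -0.26. The scale factors moved with this step: they lay between 1.00 and 1.07 for 9 h and between 0.664 and 0.868 for 12 h. With the scale factor as a covariate the differences from all transcripts were 0.00 for the risen and -0.10 for the fallen transcripts. Since the libraries of 9 h and 12 h do not overlap in scale factor, time and scale factor cannot be told apart there. Between 1 and 3 h the same covariate left 1328 calls, 788 higher and 540 lower.

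**Figure D5:**
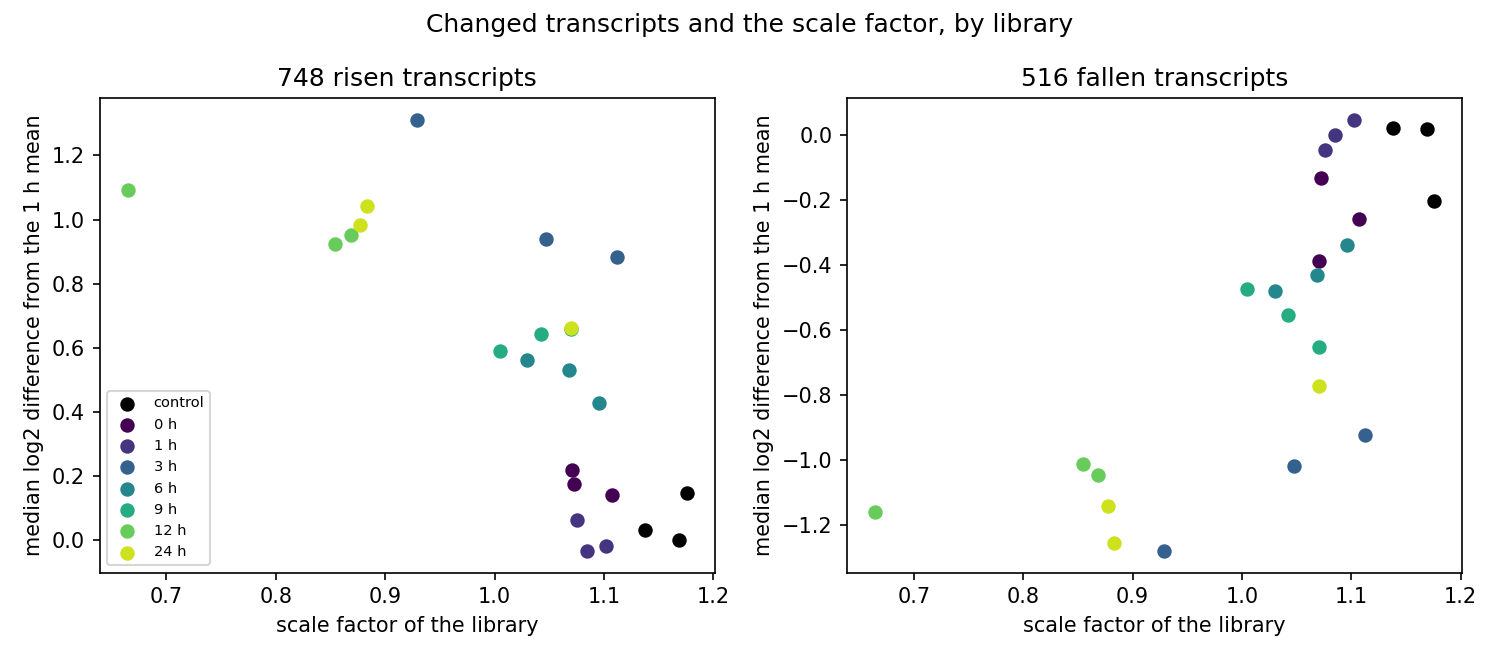
Median log2 difference from the 1 h mean (vertical axis) of the 748 risen (left) and the 516 fallen (right) transcripts against the scale factor of the library (horizontal axis), 24 libraries coloured by group. Replicate 1 of 3 h, with a factor of 0.929, lies furthest from 0 among the 3 h libraries in both panels, and the libraries of 12 h have the lowest factors.

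Of 620 loci with several tested transcripts, 43 had a called transcript, and each of these had 1 only. There was thus no locus with transcripts called in opposite directions (0) by limma. Of the transcripts of these loci 3.30% were called, and of those of the other loci 8.04%. RSEM divides reads between isoforms by estimation, and the part of that in the lower share was not tested.

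Some changed loci had consecutive numbers in their identifiers. Of the 748 risen loci, 136 (18.2%) had a locus numbered 1 higher or lower that also rose, against 7.90% of all 15806 tested loci with such a risen neighbour. Of the 516 fallen loci it was 83 (16.1%) against 5.43%. The risen loci with neighbours formed 52 runs of 2 numbers, 9 of 3 and 1 of 5, and the fallen ones 31 runs of 2 and 7 of 3. Without each library in turn the shares were 10.8% to 18.2% for the risen, against 3.29% to 8.22% of all loci, and 8.16% to 15.1% for the fallen, against 2.07% to 6.46%. The counts were lowest without 3 h replicate 1, at 33 and 16. Without 1 h replicates 1, 2 and 3 the risen counts were 74, 52 and 49 and the fallen ones 43, 23 and 23, and without 3 h replicate 3 the fallen count was 51. The position of the loci in the genome was not used here, and near-identical copies can share reads in the estimates.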

How the data were processed

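The authors deposited 1 table of TPM for 20853 transcripts of 19939 loci in 24 libraries. RSEM 1.2.26 and Bowtie2 2.2.9 are named in the submitters' processing notes, beside DESeq2 1.22.2 and FastQC 0.11.3, but what each did is not. A genome build is not given in the sources used here. Values are relative within a library. An exact 0 can be a failed estimate, so transcripts are described as listed at 0.

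TPM was divided by the median ratio to the geometric mean of the 12190 transcripts that every library lists above 0. The filter, 1 TPM or more in 3 or more libraries, left 16490 transcripts. Log2(scaled TPM + 1) of the 24 libraries was fitted with a mean per group in limma 3.58.1 (R 4.3.3; eBayes with trend and robust), two-sided, with Benjamini-Hochberg adjustment over all transcripts and a threshold of 0.05. Fold changes on this scale understate those of low transcripts. The steps were tested on simulated data. An exact permutation test of 3 against 3 cannot go below 0.1. Figures were drawn with matplotlib 3.10.9 (Python 3.11.15).

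The rule for named transcripts took the 2 largest rises and 2 largest falls with an adjusted p under 0.05, a mean of 5 scaled TPM or more at 1 of both times and no overlap, plus BV898_14257. Lists, members and rules were chosen with earlier results of these data known. Lists by product name matched 0 identifiers and gave no result, and tissue markers could not be checked for the same reason. No libraries were identical (0 pairs). The labels give no batch.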

Additional observations from a re-analysis of the deposited data

How the results depend on the processing

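The count of 1264 transcripts changed between 1 and 3 h stayed within 1.5 times, from 1023 to 1447, with other pseudocounts and filters, unscaled or quantile normalized values, TPM per locus, eBayes without trend and robust settings, the controls left out, the 6 libraries alone and the replicate block. It was 2813 (1487 higher, 1326 lower) with quality weights per library and 716 with a 2-fold change also required. Leaving out 1 library of 1 h or 3 h gave 501 to 1381. At 6 h against 0 h, quality weights gave 450 risen transcripts called higher (30.3% of the risen, against 15.1% of all tested). They gave 297 fallen ones called lower (22.4% against 12.6%). With the 2-fold threshold in both comparisons these counts were 91 (22.5% against 8.37%) and 35 (11.2% against 5.46%). Leaving out 1 library of 0, 1, 3 or 6 h gave 108 to 251 and 53 to 139, with the shares given above. No named transcript changed direction (0) under the 19 alternatives in which each was followed. TPM summed per locus, the 2-fold requirement and the fits without a library of 0 h or 6 h were not among these. With the replicate block the count was 1381, and 1023 in the 6 libraries alone. The numbers were not taken as pairs, since the labels do not say that they pair libraries. Deviations from the group means correlated at 0.08, -0.14 and 0.03 for same-numbered libraries of 1 h and 3 h. For different numbers they correlated at -0.21 to 0.18. Deviations within a group depend on each other, so these values cannot show whether the numbers mark pairs. The scale factor as covariate was added after seeing the data. TPM holds no depth, so no detection limit can be given for transcripts listed at 0.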

Other observations

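Within 5 of the 8 groups (0, 1, 3, 6 and 12 h) the library with the lowest scale factor was also the one in which the risen transcripts had their highest median and the fallen ones their lowest. It was not so in the control pools and those of 9 h and 24 h. In the latter, replicates 1 to 3 had factors of 0.883, 1.07 and 0.877, and risen medians of 1.04, 0.66 and 0.98 above the 1 h mean. At 6 h the factors were 1.03, 1.10 and 1.07 and the medians 0.56, 0.43 and 0.53. The sets were chosen on libraries of 1 h and 3 h, among them 3 h replicate 1 with its factor of 0.929. The matches within 1 h and 3 h are thus not independent of the choice. With 3 libraries in a group, such a match also arises by chance in some groups. What part the makeup of single libraries has in the course of the sets was not tested.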
